A study of Mus musculus with 16 samples.

Results

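The MHC class II genes described here were the invariant chain gene *Cd74*, the chain genes *H2-Aa*, *H2-Ab1* and *H2-Eb1*, the peptide loading gene *H2-DMa* and *Ciita*, the gene for the class II transactivator. These 6 members were chosen by symbol from the 32285 genes of the deposited matrices. Their UMIs (unique molecular identifiers, each standing for 1 captured RNA molecule) were summed per library and per class of nuclei. The study profiled single nuclei from hippocampi of male mice, in 16 libraries. Wild-type (WT) C57BL/6 mice, aged 2 months and 23 days, received vehicle or DMXAA, an agonist of mouse STING given by repeated intraperitoneal injection. *Ifnar1-/-* (KO) mice, which lack a subunit of the type I interferon receptor and were aged 3 months and 3 days, received the same. Each of the 4 groups held 4 libraries, so genotype coincided with age, and the effects of genotype and age cannot be told apart. The purpose of the injections was to hold type I interferon signalling active. The KO mice serve as a comparison without that receptor subunit, though they also differ in age.

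MHC class II molecules present peptides from endocytosed protein to CD4+ T cells. An alpha chain and a beta chain pair in the endoplasmic reticulum with the invariant chain, which blocks the groove until H2-DM exchanges its remnant for peptide. CIITA sets which cells make class II: it does not bind DNA but is recruited by factors sitting on an X box and a Y box upstream of the genes. In the brain, macrophages of the meninges, perivascular spaces and choroid plexus (border macrophages) and dendritic cells carry class II, and resting microglia carry little. Class I genes answer to the related protein NLRC5 and to type I interferon. C57BL/6 mice make no I-E alpha chain, so their *H2-Eb1* product lacks its usual partner.

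Promoter windows of the chain genes *H2-Aa* and *H2-Eb1* are shown because they carry the paired boxes through which CIITA acts. RefSeq windows were at hand for 3 of the 6 members, *H2-Aa*, *H2-Eb1* and *H2-DMa*. Those of *Cd74*, *H2-Ab1* and *Ciita* were not analysed here. Each sequence runs 5′ to 3′ on the gene's strand over the 110 bases before the start, at chr17:34287824-34287933 (minus strand) for *H2-Aa* and chr17:34305757-34305866 (plus strand) for *H2-Eb1*, in GRCm38.p6. Capitals mark the X box core GCAAC and the Y box CTGATTGG.
H2-Aa: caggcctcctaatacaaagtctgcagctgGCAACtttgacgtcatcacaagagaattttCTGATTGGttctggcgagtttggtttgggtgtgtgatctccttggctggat
H2-Eb1: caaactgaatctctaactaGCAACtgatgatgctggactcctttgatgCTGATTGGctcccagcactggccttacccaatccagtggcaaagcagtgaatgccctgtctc
The Y box began 51 bases before the start of *H2-Aa* and 62 bases before that of *H2-Eb1*, with 25 and 24 bases between the boxes. Single motifs were searched on both strands and the ordered pair on the gene strand only. The motifs share no letters where they lie. CTGATTGG occurred in 3.83% and GCAAC in 29.9% of 32851 promoter windows of 250 bases, and the ordered pair with 10 to 40 bases between occurred in 21 of them (0.0639%). The windows of *H2-DMa* held no such pair. These matches describe letters only, and no binding was measured.

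The chain genes and *H2-DMa* lie together on chromosome 17 within 197 kb (GRCm38). *H2-DMa* spans chr17:34119541-34139101 and overlaps *Brd2* on the opposite strand and *CR974462.3* on its own strand. *H2-Ab1* spans chr17:34257689-34269419, *H2-Aa* chr17:34282744-34287823 and *H2-Eb1* chr17:34305867-34316674, the last with the antisense gene *Gm20513*. *Cd74* lies at chr18:60803848-60812652 and *Ciita* at chr16:10480059-10528418, where *Dexi* runs on the opposite strand. The use of strand in counting is not given in the sources used here. Whether counts of *H2-DMa*, *H2-Eb1* and *Ciita* include reads of genes that overlap them is therefore not settled.

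After filtering, 108878 nuclei remained, 5163 to 9237 per library, with 32521208 to 51522173 UMIs per library. The libraries of a pair shared 12 to 41 barcodes, at most 0.445% over 120 pairs. WT DMXAA replicate 3 stood apart: it gave 86 of the 111 neutrophil nuclei and 413 of the 481 nuclei of 1 microglial sub-cluster, so comparisons of members and class I genes that turn on it are also given without it. *Ifnar1* was counted at 17.1 to 19.3 CPM (UMIs of a gene scaled to a common total per library) in WT vehicle and at 10.7 to 12.1 in KO vehicle, lower without overlap but not at 0. Classes were named from marker genes with the members left out of the clustering. Border macrophages (281 nuclei) held the mannose receptor gene *Mrc1* in 97.5% of nuclei, against 2.08% in microglia (4810 nuclei). *P2ry12* was in 77.1% of microglia but also in 52.7% of border macrophages. *Sall1* was in 38.4% and 1.07%, and *Tmem119* in 27.4% and 0.356%, in the same order.

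Class II transcripts were concentrated in very few nuclei. A sub-cluster of 121 nuclei led by *Cd74* held 58.6% of all *Cd74* UMIs, 58.0% of *H2-Aa*, 61.6% of *H2-Ab1* and 61.3% of *H2-Eb1*. Border macrophages held another 13.8%, 14.9%, 15.1% and 11.7%, whereas microglia, a far larger class, held 4.95%, 0.392%, 3.69% and 3.00%. These shares pool all groups. In WT DMXAA the sub-cluster held 21 of 130 UMIs of *Cd74*, 8 of 35 of *H2-Aa*, 8 of 35 of *H2-Ab1* and 6 of 43 of *H2-Eb1*. Border macrophages there held more, at 41, 11, 13 and 8, but replicate 1 alone gave 34, 8, 13 and 7 of these. The sub-cluster in that library held 6, 3, 2 and 2, on 1 nucleus. The order of these classes in WT DMXAA therefore rests on that library. Of the *H2-DMa* and *Ciita* UMIs, 62.4% and 68.7% lay in the 45248 excitatory neurons, which held 65.6% of the UMIs of all genes. Shares in other classes did not all lie this close. Over all groups the sub-cluster held 24 of 4647 *H2-DMa* UMIs and 79 of 2970 *Ciita* UMIs, beside 0.0422% of all UMIs. Over all libraries the kept nuclei gave 869 UMIs of *Cd74*, 255 of *H2-Aa*, 271 of *H2-Ab1*, 333 of *H2-Eb1*, 4647 of *H2-DMa* and 2970 of *Ciita*.

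**Figure D1:**
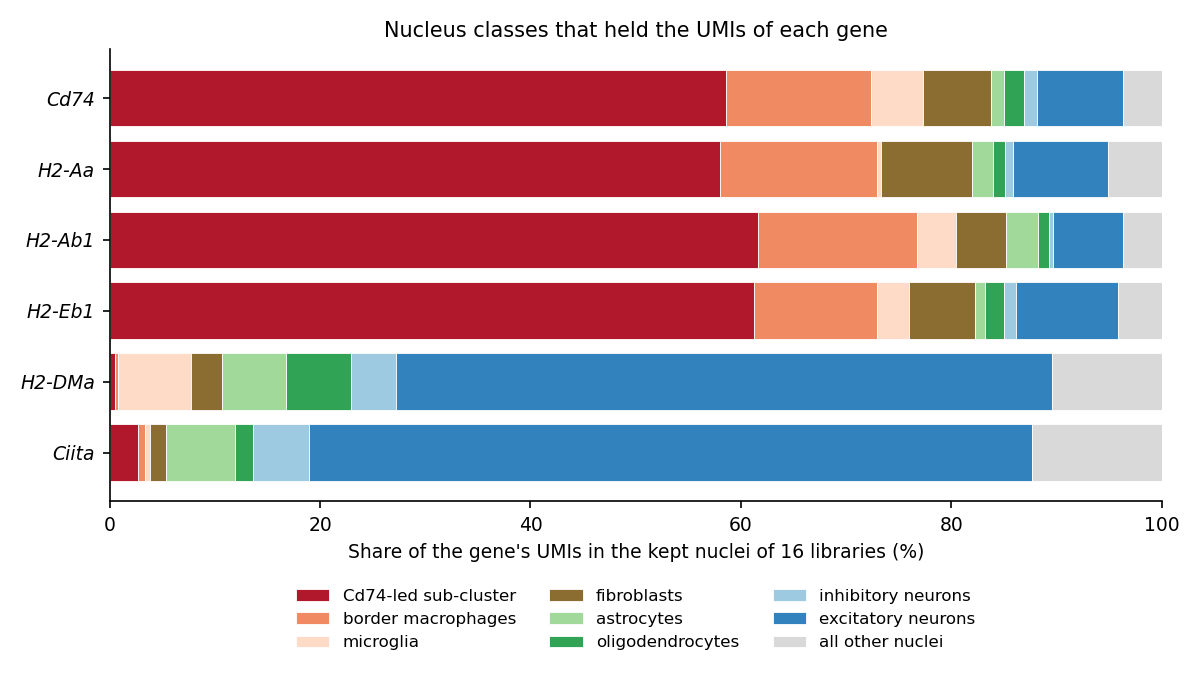
Share of the UMIs of each member (horizontal bars, percent, over all 16 libraries) by class of nuclei. The Cd74-led sub-cluster takes 58.0% to 61.6% of *Cd74* and the 3 chain genes, and excitatory neurons take 62.4% of *H2-DMa* and 68.7% of *Ciita*, beside 65.6% of the UMIs of all genes. All groups are pooled, and in WT DMXAA the sub-cluster held 21 of 130 *Cd74* UMIs and 6 of 43 *H2-Eb1* UMIs.

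Levels were compared between classes as CPM per library, mean ± SD over libraries with at least 10 nuclei of the class. *Cd74* stood at 2676 ± 338 CPM (n = 5) in the Cd74-led sub-cluster, 174 ± 199 (n = 16) in border macrophages, 6.90 ± 4.31 in fibroblasts and 4.81 ± 4.77 in microglia. The 5 sub-cluster libraries were WT vehicle 3, KO vehicle 3 and 4 and KO DMXAA 3 and 4. No WT DMXAA library was among them, and the pooled sub-cluster level there was 348 CPM, beside 1976 CPM over all 121 nuclei. Fibroblasts and microglia were within their spreads of each other. In all further classes *Cd74* lay below 1 CPM by this measure, with 0.187 ± 0.113 CPM in excitatory neurons. Neutrophils had 1 library with enough nuclei, at 0. Pooled, 1 of their 111 nuclei held 6 *Cd74* UMIs, or 31.9 CPM. The share of nuclei with a *Cd74* UMI was 0.707% in microglia at a median of 1846 UMIs per nucleus and 0.141% in excitatory neurons, which should lack the gene, at a median of 8525. Thinned to 1000 UMIs per nucleus, these shares were 0.366% and 0.0133%.

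*H2-Aa*, *H2-Ab1* and *H2-Eb1* followed the same order at the top. *H2-Aa* stood at 688 ± 215 CPM in the Cd74-led sub-cluster, 58.2 ± 52.3 in border macrophages and 2.50 ± 3.13 in fibroblasts, and a single *H2-Aa* UMI was found in all microglia. *H2-Ab1* stood at 754 ± 159, 59.0 ± 91.3 and 1.54 ± 1.72 CPM in those 3 classes and at 1.06 ± 1.37 in microglia. *H2-Eb1* stood at 892 ± 200, 57.7 ± 60.8 and 2.39 ± 2.20 CPM, and at 0.872 ± 1.60 in microglia. For each chain gene these 5 sub-cluster libraries and the border macrophages were separated by more than their SDs. In WT DMXAA the sub-cluster was at 133, 133 and 99.4 CPM pooled for *H2-Aa*, *H2-Ab1* and *H2-Eb1*, with libraries down to 0, and overlapped border macrophage libraries, which reached 131, 213 and 114 CPM. The SDs of fibroblasts and microglia overlapped for *H2-Ab1*, *H2-Eb1* and *H2-Aa*, with many libraries at or near 0. Pooled, fibroblasts held 22 *H2-Aa* UMIs, at 2.46 CPM, against 0.108 CPM for the single microglial UMI. In the remaining classes the chain genes lay at 1.52 CPM or below by this measure, apart from 1 neutrophil library with 1 *H2-Eb1* UMI. Pooled, the 111 neutrophil nuclei held 4 *H2-Aa*, 2 *H2-Ab1* and 2 *H2-Eb1* UMIs.

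*Ciita* also peaked in the same 5 libraries of the sub-cluster, at 365 ± 91.5 CPM, with 27.1 ± 45.0 in border macrophages. In WT DMXAA the sub-cluster was at 33.1 CPM pooled, on 2 UMIs. Border macrophages there were at 35.7 CPM, with 6 of their 7 UMIs from replicate 1. Next came a plateau of neurons and other cells, 6.77 ± 6.57 CPM in Cajal-Retzius neurons, 5.15 ± 1.42 in excitatory neurons, 5.14 ± 3.16 in fibroblasts and 5.02 ± 1.86 in inhibitory neurons. These neighbours did not differ beyond their spread. Microglia, at 1.54 ± 1.21 CPM, lay below excitatory neurons and close to oligodendrocytes at 1.13 ± 0.432.

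*H2-DMa* was the one member with UMIs in the microglia of every library. It stood at 98.5 ± 54.3 CPM in the sub-cluster, 33.6 ± 13.3 in microglia, 18.9 ± 24.4 in border macrophages and 16 ± 4.82 in fibroblasts. The WT DMXAA sub-cluster was at 49.7 CPM pooled, on 3 UMIs. Microglia and border macrophages overlapped in their spreads. The lowest classes, from excitatory neurons at 7.23 ± 1.5 CPM to differentiating oligodendrocyte precursors at 4.54 ± 8.10, formed a continuous series without a gap beyond the SDs.

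Border macrophages were then set against microglia within each library. *Cd74*, *H2-Aa*, *H2-Ab1* and *H2-Eb1* were higher in border macrophages. With the filter on low counts none of the 6 members entered the edgeR fit of 4281 genes, in which 36.5% of genes were called. A call needs an adjusted p below 0.05 together with a log2 fold change beyond 0.1 in either direction. Without the filter all 6 were tested and called. The Cd74-led sub-cluster, which held most UMIs of *Cd74* and the chain genes, was in neither class. The log2 fold change was 6.32 (SE 0.48) for *H2-Aa*, 4.84 (SE 0.42) for *H2-Eb1*, 4.65 (SE 0.43) for *H2-Ab1*, 4.45 (SE 0.31) for *Cd74* and 3.33 (SE 0.49) for *Ciita*. For edgeR, SE stands throughout for the absolute fold divided by the square root of the F statistic. It is not reliable near 0 counts, and *H2-Aa* had 1 UMI in all microglia. *H2-DMa* was at -1.19 (SE 0.40), with 14 UMIs in border macrophages, none in 9 of the 16 libraries, and a pooled level of 20.5 CPM against 34.6 in microglia. The median over all genes in this fit was -0.49. Without WT DMXAA replicate 3 all 6 were called again, at 6.41, 5.54, 4.82, 4.6, 3.55 and -1.13 in the same order. Of 21541 genes tested in that way, 3.88% were called higher and 14.6% lower in border macrophages.

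The same difference was examined per member with an exact paired permutation test over the 16 libraries, two-sided, on log2(CPM + 1). *Cd74* was higher in border macrophages in 13 libraries and lower in 3, by 3.83 on average (exact p = 0.00119). *H2-Aa* was higher in 12 and lower in none, by 4.45 (exact p = 0.000488). *H2-Ab1* was higher in 9 and lower in 4, by 2.68 (exact p = 0.00781), and *H2-Eb1* was higher in 9 and lower in 1, by 3.12 (exact p = 0.00391). *Ciita* was higher in 7 and lower in 7, by 1.30, and its exact p was 0.122. It had no UMI in 9 border macrophage libraries, where the microglial level would give 0.0647 UMIs per library. For *Cd74* and the chain genes that level would give 0.00462 to 0.199. A library at 0 therefore does not show a lower level for these 5 genes. No paired test is given for *H2-DMa*, since at the microglial level a border macrophage library would hold 1.48 of its UMIs on average. These are unadjusted p-values. Without WT DMXAA replicate 3 the differences over 15 libraries were 4.22, 4.75, 2.94, 3.51 and 1.5 for *Cd74*, *H2-Aa*, *H2-Ab1*, *H2-Eb1* and *Ciita*, with exact p from 0.000488 to 0.0894.

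**Figure D2:**
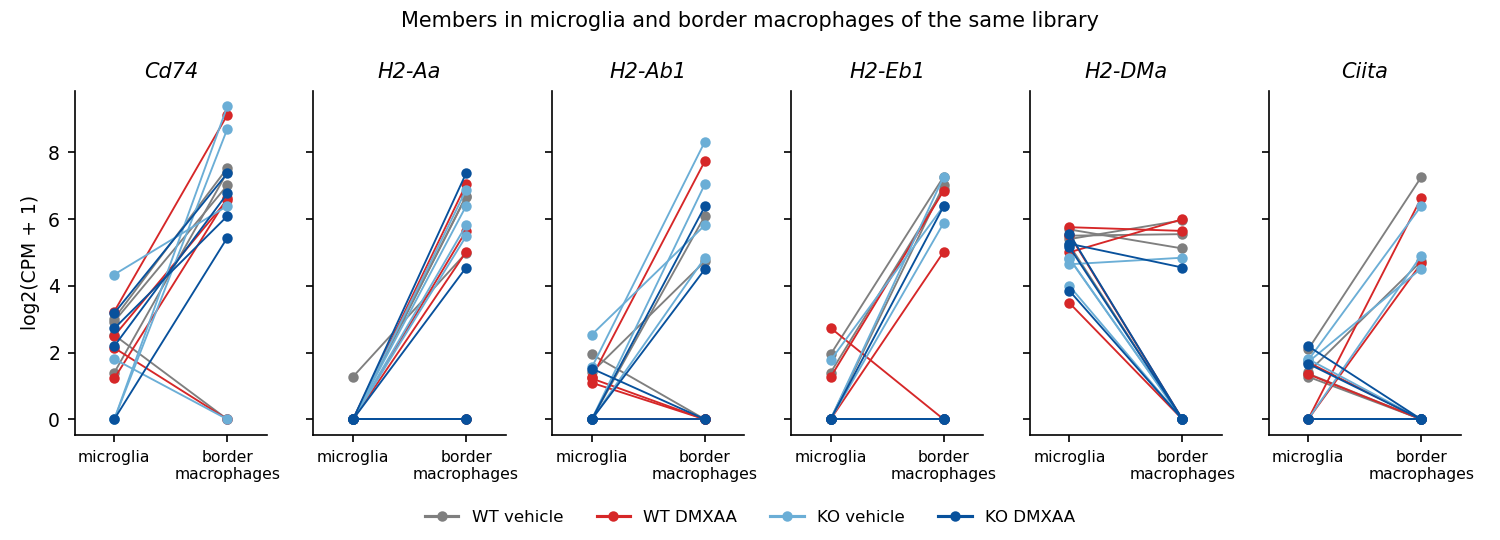
Level of each member in microglia and border macrophages of the same library, as log2(CPM + 1), 1 line per library (16 libraries). Lines for *Cd74* rise in 13 libraries and those for *H2-Aa* in 12, and many border macrophage points lie at 0, where the 11 to 25 nuclei held no UMI of the gene.

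Border macrophages were not uniformly positive. Of 281 nuclei, 239 held no member, 18 held 1 and 14 held at least 3. The 10 nuclei richest in *Cd74* gave 91 of its 120 UMIs, or 75.8%. Detection was shared: of 28 nuclei with *Cd74*, 14 also held *H2-Aa*, 13 held *H2-Ab1*, 13 held *H2-Eb1* and 9 held *Ciita*. In microglia, 34 of 4810 nuclei held *Cd74*, 29 of them with 1 UMI and none with more than 4. Only 2 microglial nuclei held 3 or more members, and of the 14 with *Ciita* 1 held *Cd74*. The first-level division of macrophages left the Cd74-led nuclei mostly inside the border macrophage cluster, which gave 105 of the 121.

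The Cd74-led sub-cluster is called by its leading gene because its cell type was not settled. Its markers named it microglia, whereas most of its nuclei came from the first-level border macrophage cluster. The lead was narrow, with a mean log2 enrichment of 4.55 for the microglial list and 4.16 for the monocyte list. Of the 10 microglial markers, which scored best, *Inpp5d* was found in 90.1% of its nuclei, *Csf1r* in 53.7%, *P2ry12* in 29.8% and *Tmem119* in 1.7%. Of the 10 border macrophage markers, *Mrc1* was in 51.2%, *Dab2* in 44.6% and *F13a1* in 28.9%, but *Pf4* was in 2.5% and *Lyve1* in none. Of the 6 monocyte markers, the receptor gene *Ccr2* was in 32.2% and the others were in 1.7% to 9.9%. The 7 dendritic cell markers ranged from 0% (*Xcr1*, *Clec9a*) to 13.2% (*Zbtb46*), and the 6 B cell markers from 0.8% (*Cd79a*, *Cd79b*) to 20.7% (*Bank1*). The 8 T or NK cell markers were in 0.8% or fewer, with *Cd3e* in none. Of its 121 nuclei, 64 held 3 or more members, against 14 border macrophages, 5 fibroblasts, 2 microglia, 2 excitatory neurons and 1 neutrophil. Of the 39 nuclei with *Ciita*, 38 also held *Cd74* and 35 held *H2-Eb1*. Its *Cd74* UMIs were less bunched than in border macrophages, with 172 of 509 (33.8%) in the richest 10 nuclei. The sub-cluster was found after its values were seen, so its levels are a description.

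**Figure D3:**
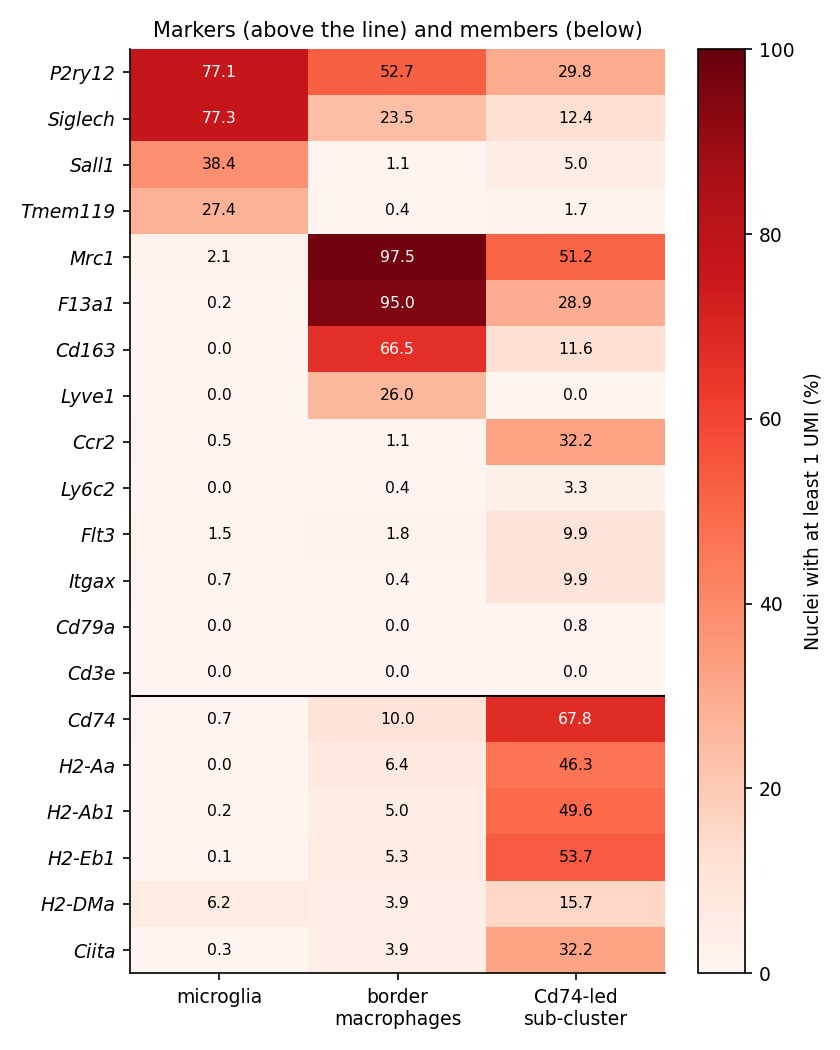
Percent of nuclei with at least 1 UMI of each marker gene and each member (rows) in microglia, border macrophages and the Cd74-led sub-cluster (columns). *P2ry12* is in 77.1% of microglia and 52.7% of border macrophages, and *Mrc1* is in 97.5% of border macrophages. *Cd74* is in 67.8% of the sub-cluster, which also holds *Mrc1* in 51.2% and *Ccr2* in 32.2% of nuclei.

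DMXAA was first compared with vehicle in microglia. Class II genes other than *H2-DMa* stayed at a few UMIs per library in every group, while class I genes rose in WT. The groups mostly held different microglial sub-clusters: 1231 of 1319 WT vehicle nuclei lay in 1 of them, and 991 and 419 of 1487 WT DMXAA nuclei lay in another pair. The remaining one held 891 of 949 KO vehicle and 761 of 1055 KO DMXAA nuclei. The sub-cluster of most WT vehicle nuclei also held 282 KO DMXAA nuclei (134, 1, 105 and 42 by replicate), against 8 of KO vehicle. *Cd74* in WT vehicle microglia was 4.75, 1.63, 6.62 and 7.11 CPM, and in WT DMXAA microglia 8.38, 4.66, 3.41 and 1.34 CPM. In KO vehicle it was 2.50, 19.2, 0 and 0 CPM, and in KO DMXAA 8.08, 0, 3.57 and 5.61 CPM. The groups overlapped throughout, and the highest value rested on 8 UMIs of 1 library. *H2-Aa* had 1 UMI in all. In WT vehicle and DMXAA and then KO vehicle and DMXAA, *H2-Ab1* had 3, 3, 3 and 1 UMIs, and *H2-Eb1* had 3, 6, 1 and 0. Of the 6 *H2-Eb1* UMIs in WT DMXAA, 5 came from replicate 3. *Ciita* had 5, 3, 3 and 3 UMIs, so a fall or a small change in these 5 genes was not detectable at this depth. A gate on markers per nucleus, tried in place of the clusters, also admitted nuclei of the Cd74-led sub-cluster. These 17 nuclei gave 43 of the 48 *H2-Ab1* UMIs and 48 of the 55 *H2-Eb1* UMIs of gated WT vehicle microglia. In WT DMXAA 6 such nuclei gave 2 of 4 and 2 of 7. Folds of *Cd74*, the chain genes and *Ciita* from that gate are therefore not given for microglia. Of the *H2-DMa* UMIs such nuclei gave 2 of 113 in WT vehicle and 3 of 108 in WT DMXAA.

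*H2-DMa* was the only member with enough UMIs to be fitted in microglia. WT vehicle libraries stood at 44.4, 50.6, 36.4 and 41.3 CPM and WT DMXAA libraries at 53.1, 31.1, 10.2 and 45.4 CPM. KO vehicle libraries stood at 15, 24.0, 27.1 and 27.4 CPM and KO DMXAA libraries at 13.5, 34.8, 46.4 and 37.4 CPM. DMXAA and vehicle overlapped in both genotypes, and the lowest WT value was replicate 3. The edgeR log2 fold change was -0.29 (SE 0.35, adjusted p = 0.873) in WT and 0.48 (SE 0.41, adjusted p = 0.904) in KO. Their difference, the interaction, was 0.77 (SE 0.54, adjusted p = 0.668 by edgeR). Without WT DMXAA replicate 3 the WT value was 0.01 and the interaction 0.48. Of the 1 member tested, 0 were called in WT, where 2.08% of 8873 genes were called, 0 in KO (background 0%) and 0 in the interaction (background 0.214%). In KO microglia, 424 genes had an unadjusted p under 0.05 by edgeR, and neither DESeq2 nor limma called a gene, whereas a fit of the KO libraries alone called 16 genes higher and 72 lower, no member among them.

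Class I genes were read in the same microglia. *Nlrc5*, the class I transactivator, stood at 7.92, 8.17, 6.62 and 2.84 CPM in WT vehicle and at 218, 113, 73.8 and 93.5 CPM in WT DMXAA. In KO it was at 0, 2.40, 0 and 0 CPM under vehicle and at 0, 4.35, 0 and 1.87 under DMXAA. *H2-K1*, a class I heavy chain, stood at 68.1, 47.4, 48.0 and 64.0 CPM in WT vehicle and at 346, 364, 116 and 378 CPM in WT DMXAA. WT groups did not overlap for either gene, and KO groups did. WT groups overlapped through replicate 3 for *H2-D1*, at 50.0 CPM there against 335 to 368 in the other WT DMXAA libraries and 40.8 to 68.3 in WT vehicle, and for *B2m*, at 155.6 CPM there beside 81.7 to 156.5 in WT vehicle. In the edgeR fit 6 of 8 class I genes rose in WT microglia, with a median log2 fold change of 1.41 beside 0.03 over all genes tested. *Nlrc5* rose by 4.29 (SE 0.43, adjusted p = 5.92e-06), *H2-K1* by 2.42 (SE 0.26, adjusted p = 2.77e-05) and *H2-D1* by 2.29 (SE 0.44, adjusted p = 0.0112). *Tap1* of the peptide transporter rose by 1.64, *B2m* by 1.19 and the immunoproteasome gene *Psmb9* by 1.16, all in the same fit. Without WT DMXAA replicate 3 the values were 4.44 for *Nlrc5*, 2.66 for *H2-K1*, 2.63 for *H2-D1*, 1.82 for *Tap1*, 1.34 for *B2m* and 1.26 for *Psmb9*. Under 20 other settings *Nlrc5* and *H2-K1* were called in each. *Tap1* was called in 18, and leaving out WT DMXAA replicate 1 was among the settings that lost it. *H2-D1* was called in 17, and leaving out WT vehicle replicate 1 or 2 was among the settings that lost it. *Psmb9* was called in 7, its call being lost without any 1 of the other WT libraries, while *B2m* was called in 20 of 21. In that fit none was called in KO, and the effect of DMXAA on *H2-K1* differed between genotypes at -2.31 (edgeR adjusted p = 0.0209). That call was lost in 10 of 27 other settings, 9 of them leaving out 1 library (edgeR adjusted p up to 0.0833), and was -2.57 without WT DMXAA replicate 3. Marker lists moved too. In WT microglia the summed neutrophil list was higher under DMXAA (733 to 859 CPM) than under vehicle (567 to 632 CPM) without overlap. The summed microglial list was lower under DMXAA (6818 to 11267 CPM) than under vehicle (11319 to 12196 CPM), also without overlap. *Csf3r*, which microglia also held, gave 97.1% of the neutrophil list's UMIs in WT DMXAA and 99.9% in WT vehicle, and *S100a8* and *S100a9* had 14 and 44 UMIs in WT DMXAA against 0 and 1. Over all groups 13 and 44 of their microglial UMIs lay in the sub-cluster that drew 413 of its 481 nuclei from WT DMXAA replicate 3. The monocyte list was 6.62 to 19.6 CPM under vehicle and 17.4 to 32.1 CPM under DMXAA, with *Ly6c2* at 0 in both, and the part of these lists in the results was not tested.

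**Figure D4:**
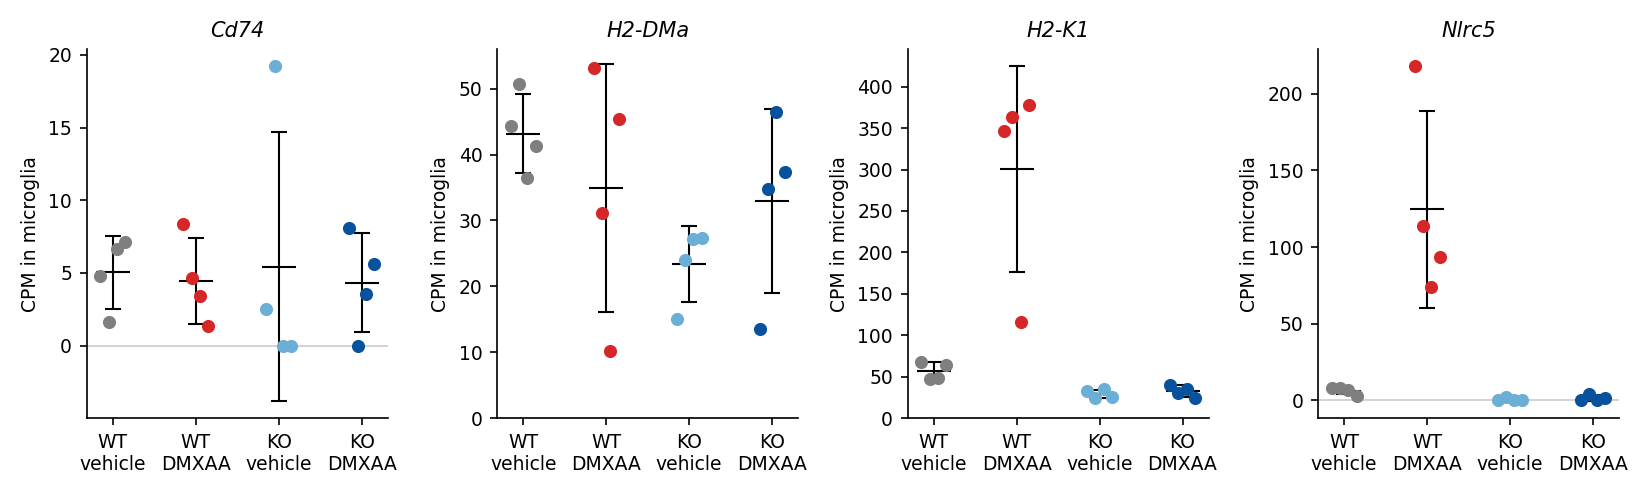
CPM in microglia of the 4 groups for *Cd74*, *H2-DMa*, *H2-K1* and *Nlrc5*, 1 point per library with the group mean and SD (4 libraries each). *Cd74* and *H2-DMa* overlap between vehicle and DMXAA in both genotypes, while *H2-K1* and *Nlrc5* are higher in every WT DMXAA library than in any WT vehicle library.

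The rest of the class II pathway was followed in microglia through a list of 32 genes, of which 31 were in the files and 18 were tested. In WT none of the 18 was called with DMXAA in either direction by edgeR, beside 2.08% of all genes tested, so nothing is read from this count. Their median log2 fold change was 0.09, beside 0.03 over all genes. *Ifi30*, a lysosomal thiol reductase, measured 1.20 (SE 0.37, adjusted p = 0.133 by edgeR) and *Irf1*, which acts on a *Ciita* promoter, measured 1.08 (SE 0.35, adjusted p = 0.159 by edgeR), neither of them called at an unadjusted edgeR p of 0.00435 and 0.00581. The promoter-binding factors *Creb1*, *Nfya*, *Nfyb* and *Nfyc* ranged from -0.66 to 0.26 and were not called. In KO and in the interaction none of the 18 was called either, beside 0% and 0.214%. Of 5 further class II chain genes in the files, *H2-DMb1* alone was tested, at -0.37 in WT, and was not called.

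In border macrophages the members varied more between libraries than between groups. *Cd74* was 0, 169, 128 and 184 CPM in WT vehicle, 556, 94.2, 0 and 98.1 in WT DMXAA, 0, 83.1, 667 and 416 in KO vehicle and 165, 42.5, 108 and 67.2 in KO DMXAA. *H2-Aa* was 0, 101, 103 and 30.7 CPM, then 131, 31.4, 0 and 49.1, then 55.4, 83.1, 116 and 43.8, then 165, 0, 0 and 22.4, in the same order. WT DMXAA replicate 3 held no member UMI in its border macrophages. *H2-Ab1* was 0, 67.5, 25.6 and 0 CPM in WT vehicle and 213, 0, 0 and 0 in WT DMXAA, and 27.7, 55.4, 319 and 131 in KO vehicle and 82.5, 0, 21.6 and 0 in KO DMXAA. *H2-Eb1* was 0, 118, 128 and 154 CPM in WT vehicle, 114, 31.4, 0 and 0 in WT DMXAA, 0, 83.1, 58.0 and 153 in KO vehicle and 82.5, 0, 0 and 0 in KO DMXAA. All groups overlapped for these genes. *Ciita* had no UMI in KO DMXAA and 0, 83.1, 29.0 and 21.9 CPM in KO vehicle.

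No member passed the filter on low counts in border macrophages, so 0 of 0 were called in any contrast. The background there was 0.272% of 1104 genes in WT, 0% in KO, 0.272% in the interaction and 1.09% between the vehicle groups. In KO, 63 genes had an unadjusted p under 0.05 by edgeR and neither DESeq2 nor limma called a gene. The exact permutation test on log2(CPM + 1), two-sided over 70 arrangements with a smallest possible p of 0.0286, gave its lowest values in KO. These were a difference of -3.79 for *H2-Ab1* (exact p = 0.114) and -3.95 for *Ciita* (exact p = 0.143). In WT the lowest was -2.33 for *H2-Eb1* (exact p = 0.229), and -1.34 without replicate 3 (exact p = 0.486). The share of border macrophages with 3 or more members was 4 of 80 nuclei in WT vehicle, 4 of 74 in WT DMXAA, 5 of 65 in KO vehicle and 1 of 62 in KO DMXAA. By the exact permutation test on library shares, p was 1 in WT and 0.257 in KO. In microglia the nuclei with 3 or more members were 1 of 1319, 1 of 1487, 0 of 949 and 0 of 1055 in the same order, where a count of 0 allows up to 0.316% and 0.284%.

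Values of the Cd74-led sub-cluster by group are given as a description. WT vehicle libraries gave 9, 7, 11 and 5 of its nuclei, WT DMXAA 1, 4, 9 and 5, KO vehicle 1, 6, 12 and 10, and KO DMXAA 6, 6, 13 and 16. Per nucleus, member UMIs averaged 11.4, 2.53, 8.97 and 11.2 in these 4 groups, although total UMIs per nucleus were highest in WT DMXAA, at 3176 against 1842 to 2110. Of the 19 WT DMXAA nuclei, 2 held 3 or more members, against 22 of 32 in WT vehicle, 13 of 29 in KO vehicle and 27 of 41 in KO DMXAA. By library the summed members ran from 198 to 9943 CPM in WT DMXAA, the highest resting on 14 UMIs of 1 nucleus, from 4902 to 7349 in WT vehicle, from 853 to 6346 in KO vehicle and from 5236 to 6720 in KO DMXAA, so the groups overlapped. Without its replicate 3 WT DMXAA had 10 nuclei with 4.2 member UMIs each, 2 of them with 3 or more members. The summed list of 6 monocyte genes ran from 0 to 4110 CPM in WT DMXAA libraries and from 547 to 1295 in WT vehicle libraries, and the border macrophage list from 725 to 2131 CPM against 1393 to 4866. Both overlapped. Pooled, the monocyte list was at 2171 CPM in WT DMXAA and 797 in WT vehicle. The microglial list was at 2137 and 3766 CPM pooled, with libraries from 1682 to 3137 and from 2707 to 4374. The part of these lists in the member values was not tested.

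Counted over the whole tissue, nuclei with 3 or more members numbered 9.35, 13.5, 11.2 and 6.50 per 10000 in WT vehicle and 5.53, 1.37, 1.08 and 6.20 in WT DMXAA. KO vehicle libraries gave 1.94, 4.95, 12 and 11.1 and KO DMXAA libraries 8.28, 6.62, 14.7 and 17.1. Means were 10.1 ± 2.96, 3.55 ± 2.69, 7.5 ± 4.86 and 11.7 ± 5.0 (SD, n = 4). The WT groups did not overlap and the KO groups did. Of these nuclei, 22 of 30 in WT vehicle and 2 of 10 in WT DMXAA lay in the Cd74-led sub-cluster. Without replicate 3 the WT DMXAA mean was 4.37 ± 2.61. These counts were formed after the values were seen and carry no test.

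**Figure D5:**
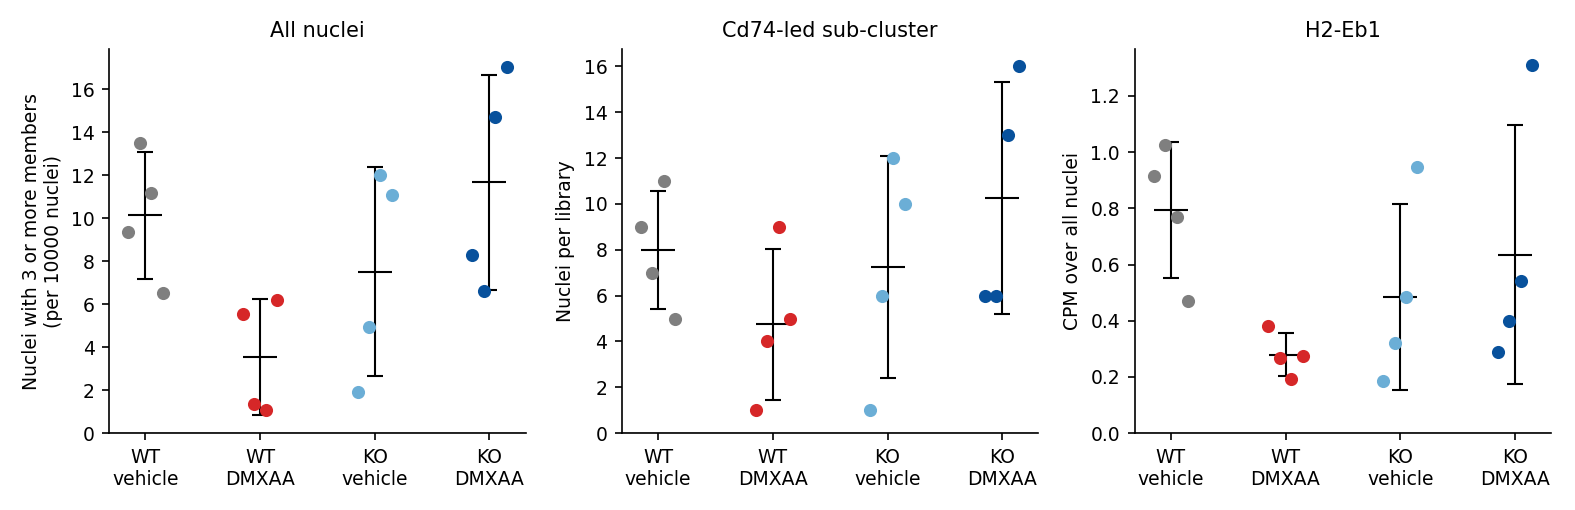
Nuclei with 3 or more members per 10000 nuclei, nuclei of the Cd74-led sub-cluster per library, and *H2-Eb1* CPM over the whole tissue, 1 point per library by group with the mean and SD (n = 4). In WT the nuclei with 3 or more members run from 6.50 to 13.5 under vehicle and from 1.08 to 6.20 under DMXAA, and KO groups overlap.

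The counts behind these values were small. In the sub-cluster *H2-Eb1* had 77 UMIs in WT vehicle, 6 in WT DMXAA, 44 in KO vehicle and 77 in KO DMXAA, and *H2-Ab1* had 63, 8, 29 and 67. When its nuclei were added to microglia, the edgeR log2 fold change in WT was -2.85 for *H2-Eb1* and -2.70 for *H2-Ab1*, and -3.14 and -2.38 without WT DMXAA replicate 3. When they were added to border macrophages, *H2-Eb1* was at -2.62, and at -2.04 without replicate 3. The members entered these fits only through the sub-cluster, which was found after its values were seen, so the folds restate its counts and carry no test.

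Over the summed nuclei of each library all 6 members were tested. In such sums fewer cells of a type and less RNA per cell cannot be told apart. *H2-Eb1* was 0.916, 1.02, 0.769 and 0.469 CPM in WT vehicle and 0.380, 0.268, 0.194 and 0.274 CPM in WT DMXAA. In KO it was 0.184, 0.321, 0.484 and 0.947 CPM under vehicle and 0.290, 0.40, 0.543 and 1.31 under DMXAA. Every WT DMXAA library lay below every WT vehicle library, and the KO groups overlapped. The Cd74-led sub-cluster held 77 of the 123 tissue UMIs of *H2-Eb1* in WT vehicle and 6 of the 43 in WT DMXAA. The tissue difference therefore restates in large part the counts of that sub-cluster. The exact permutation test on log2(CPM + 1) was run for every member in both genotypes, over the tissue and in microglia and border macrophages, without adjustment. How many of all genes had separated groups was not counted. For *H2-Eb1* in WT the test gave -0.48 (unadjusted exact p = 0.0286, the smallest possible). The edgeR log2 fold change was -1.45 (SE 0.48, adjusted p = 0.566), which is not called. Without WT DMXAA replicate 3 it was -1.40 (SE 0.53).

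The other members were not called in WT. *H2-Aa* was 0.407, 0.717, 0.385 and 0.617 CPM in WT vehicle and 0.516, 0.134, 0.0388 and 0.274 in WT DMXAA, at log2 -1.16 (SE 0.54). *H2-Ab1* was 0.534, 0.871, 0.604 and 0.370 CPM against 0.598, 0.0268, 0.0194 and 0.335, at -1.31 (SE 0.69). *Cd74* was 1.86, 1.49, 1.81 and 1.11 CPM against 1.85, 0.483, 0.272 and 0.913, at -0.83 (SE 0.56). For these 3 genes the groups overlapped through WT DMXAA replicate 1, and without replicate 3 the values were -0.83, -0.93 and -0.57. In WT vehicle the sub-cluster held 49 of 83 UMIs of *H2-Aa*, 63 of 92 of *H2-Ab1* and 145 of 242 of *Cd74*. In WT DMXAA it held 8 of 35, 8 of 35 and 21 of 130. *Ciita*, at -0.06 (SE 0.20), and *H2-DMa*, at -0.02 (SE 0.11), lay near 0 in WT, and both values were above 0 without replicate 3.

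In KO the tissue sums gave *Ciita* as the member with separated groups. It was 3.81, 3.03, 4.38 and 3.33 CPM under vehicle and 5.6, 5.57, 5.65 and 4.68 under DMXAA. All DMXAA libraries lay above all vehicle libraries (difference 0.46 on log2(CPM + 1), unadjusted exact permutation p = 0.0286, the smallest possible). The edgeR value was 0.50 (SE 0.20, adjusted p = 0.780), which is not called. WT libraries of either treatment spanned 2.78 to 6.35 CPM, a range that holds all KO libraries. The remaining members measured 0.54 (*H2-Ab1*), 0.40 (*Cd74*), 0.35 (*H2-Aa*), 0.29 (*H2-Eb1*) and 0.00 (*H2-DMa*) in KO. The interaction was positive for *H2-Ab1* at 1.85, *H2-Eb1* at 1.74, *H2-Aa* at 1.51 and *Cd74* at 1.23, with adjusted p from 0.652 to 0.785 by edgeR, and at 1.46, 1.68, 1.17 and 0.96 without WT DMXAA replicate 3. Of 6 members tested, 0 were called in WT (background 0.502% of 20131 genes), 0 in KO (0%) and 0 in the interaction (0.0745%). In KO 1127 genes had an unadjusted p under 0.05 by edgeR, and DESeq2 and limma called none. The members' median was -0.996 in WT and 0.38 in KO, beside 0.01 and 0.00 over all genes.

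Genotype was compared between the vehicle groups. *H2-DMa* in microglia was 36.4 to 50.6 CPM in WT vehicle and 15 to 27.4 in KO vehicle, with no overlap, at log2 -0.76 (SE 0.39, adjusted p = 0.186 by edgeR). It was not called, so 0 of 1 member passed beside 12.9% of all genes in microglia. Over the tissue it was 8.62 to 9.63 CPM against 5.95 to 6.55, again without overlap, at -0.21 (SE 0.11, adjusted p = 0.116 by edgeR), and 0 of 6 members passed beside 48.1% of genes. Scaling decides that call: with library sizes alone in place of TMM factors, which were 0.847 to 0.973 in KO, *H2-DMa* was at -0.54 (SE 0.15) and was called, while the median over all genes moved from -0.06 to -0.39. Of the pathway list in microglia, *Lgmn*, an endosomal protease, was higher in KO vehicle at 0.26, and *Creb1*, at -0.48, and *Mif*, a ligand of the CD74 protein, at -2.26, were lower. These calls held in 8 of 19 other settings for *Lgmn*, 14 of 19 for *Creb1* and 11 of 17 for *Mif*. Leaving out 1 library ended the call for *Lgmn* with any vehicle library but WT vehicle replicate 2. It did so without WT vehicle replicates 1 or 2 or KO vehicle replicates 2 or 4 for *Creb1*, and without WT vehicle replicates 1, 3 or 4 or KO vehicle replicates 1, 2 or 3 for *Mif*. Age differs between these groups and cannot be told apart from genotype.

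Genes that followed the summed members over the 15 classes were sought among 20153 genes by Pearson's correlation of class levels, as a description over points that share libraries. The closest were *Kynu* (r = 0.981), *Grap2* (0.953), *Kmo* (0.950), *Cd72* (0.949) and *Mogs* (0.945). The sub-cluster, with 5474 CPM of summed members against 395 in the next class, weighs most in these values, and without it they were 0.936, 0.924, 0.875, 0.883 and 0.837 over 14 classes. Border macrophages also differed from microglia in pathway genes, which are described only, since most took part in the clustering. Of 13 tested, 2 were called higher and 5 lower, beside 36.5% of all genes. Higher were *Cd80*, at 0.66, and *Cd86*, at 0.47, both costimulatory ligands. Lower were the proteases *Ctss*, at -0.99, *Lgmn*, at -0.87, and *Ctsl*, at -0.66, the promoter-binding factor *Nfyc*, at -0.65, and *Ifngr2*, a chain of the interferon gamma receptor, at -0.49.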

How the data were processed

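Nuclei from PBS-perfused mouse hippocampi were profiled with the 10x 3′ kit, 1 library per animal. The deposited matrices hold raw UMI counts per gene and barcode, made by the authors on mm10 with pre-mRNA reads counted. The methods name Cell Ranger 3.1.0, whereas the headers of all 16 matrices name 6.1.2, and which of these made the counts is not settled by the sources used here. Seurat 3.0 is named in the submitters' processing notes.

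Of 155084 barcodes, nuclei with 200 to 4000 genes and at most 5% mitochondrial UMIs were kept (118205), and 9327 predicted doublets were removed (0.8% per 1000 barcodes) with a score over all libraries together. That score replaced one per library after the data were seen, since the latter removed most border macrophages of some libraries. Counts were clustered on 2000 variable genes, without the members, on 30 components with 20 neighbours at resolution 0.5 (leidenalg 0.10.2). Clusters were named by at least 3 markers. A macrophage sub-cluster whose marker name differed from the first-level cluster of most of its nuclei was given no cell type, a rule also set after seeing the data. Macrophages were sub-clustered.

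UMIs were summed per library and class (at least 10 nuclei) and tested with edgeR 4.0.16 (quasi-likelihood, robust, TMM, filterByExpr; R 4.3.3) over all 16 libraries, in place of the authors' test per nucleus. Genes were called below a Benjamini-Hochberg adjusted p of 0.05 with a log2 fold change beyond 0.1 either way. Border macrophages and microglia were compared with the library as a block. Single values had exact permutation tests. The methods were tested on simulated data. DESeq2 1.42.0, limma 3.58.1, other scalings, filters, doublet handling, class definitions and leaving out each library were tried. Median depth was 3941 to 4984 UMIs per nucleus by library, and limits for counts of 0 use 3 counts and cover counting error only. The report names the 6 members, list genes called in microglia or border macrophages or otherwise with large changes in WT microglia, and the 5 genes closest to the summed members. A gene of the class II pathway list is not reported here, and list counts and medians leave it out. Members and lists were chosen with earlier results of these data known. Promoters are from RefSeq and gene spans from GENCODE, both on GRCm38.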

Additional observations from a re-analysis of the deposited data

Results flagged for a closer look

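In 13 of 79 groups of 4 libraries (16.5%) 1 library lay apart from the other 3 by Dixon's test, where chance gives about 1 in 20 groups and groups at 0 favour it. In microglia these were *Cd74* in KO vehicle 2 at 19.2 CPM (8 UMIs, others 0 to 2.50), *H2-Aa* in WT vehicle 4 at 1.42 CPM, *H2-Ab1* in KO DMXAA 4 at 1.87 CPM and *H2-Eb1* in KO vehicle 2 at 2.40 CPM, the last 3 resting on 1 UMI each. *Ciita* in microglia was high in WT vehicle 2, at 3.27 CPM (2 UMIs), and at 0 in KO vehicle 3, where the others held 2.28 to 2.50 CPM.

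In border macrophages the libraries apart were KO DMXAA 1 for *H2-Aa*, at 165 CPM (4 UMIs), and for *H2-Eb1*, at 82.5 CPM (2 UMIs), WT DMXAA 1 for *H2-Ab1*, at 213 CPM (13 UMIs), and WT vehicle 2 for *Ciita*, at 152 CPM (9 UMIs). *H2-DMa* stood apart on 1 UMI in KO vehicle 2, at 27.7 CPM, and in KO DMXAA 4, at 22.4 CPM. Over the whole tissue *Ciita* in KO DMXAA 4, at 4.68 CPM (161 UMIs), lay below the others at 5.57 to 5.65.

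The effect of DMXAA differed between genotypes by an interaction term in edgeR for *H2-K1* in microglia (-2.31) and for *B2m* over the tissue (-1.35, and -1.44 without WT DMXAA replicate 3, called in 8 of 22 other settings). No member differed in this way.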

How the results depend on the processing

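Alternatives with the Cd74-led sub-cluster, first-level clusters or plain library sizes were added after seeing the data. Members called moved as follows. In microglia 2 were called in WT with the sub-cluster added, also without WT DMXAA replicate 3, which gave 1 in the interaction (*H2-Eb1*), and 1 (*H2-DMa*) between the vehicle groups fitted alone. In border macrophages 1 was called in WT with first-level clusters (*H2-Eb1*), 1 with the sub-cluster added (*H2-Eb1*, both lower), also without WT DMXAA replicate 3, which gave 1 in the interaction. With at least 20 nuclei per library 1 was called higher (*Cd74*, 2.84), but that fit held 1 WT DMXAA library against 2 of WT vehicle, so the lone library is assumed to vary like the others. Fits with the sub-cluster added, or with first-level clusters, whose border macrophages take in 105 of its 121 nuclei, draw their member UMIs mostly from those nuclei, so their member calls restate its counts and are no test. The marker gate also took in nuclei of the sub-cluster, which gave 96 of the 116 *Cd74* UMIs of gated WT vehicle microglia. Over the tissue 1 (*H2-DMa*) was called between vehicle groups without TMM. Between border macrophages and microglia 6 were called without the filter, also without WT DMXAA replicate 3, 1 with a marker gate (*Cd74*), 2 with first-level clusters and 5 by the unadjusted exact permutation test, among them *H2-DMa*, which had too few UMIs for it. The cause was not tested, except that the filter leaves no member to test. In all other fits, 136 leaving out 1 library and 111 others, the number of members called was as in the main text. Where the filter left no member to test, that number was fixed in advance and shows no stability. In the main fits this was so in border macrophages and between border macrophages and microglia.

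The WT difference in the share of microglia with 3 or more members, in percentage points, was 0.108 for 2 or more and ranged from -0.0678 to 0.0601 with 1 library left out. In border macrophages it was -0.638 thinned to 1000 UMIs, -2.49 with doublets kept, 2.79 for 2 or more and ranged from -1.76 to 1.79. In KO microglia it was -0.692 with doublets kept (exact p = 0.0286, 0 of 1253 against 8 of 1155 nuclei). All 8 were predicted doublets, since KO vehicle microglia held 0 of 949 such nuclei once these were removed.

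Log2 fold changes near 0 changed sign. *H2-DMa* in WT microglia ranged from -0.56 to 0.0086 with 1 library left out and was 0.013 with a marker gate and without WT DMXAA replicate 3. Over the tissue in WT, *Ciita* ranged from -0.23 to 0.076 and *H2-DMa* from -0.077 to 0.021. In KO, *H2-DMa* was -0.015 with DESeq2, -0.00673 with limma, -0.016 with other size factors and -0.0042 with the KO groups alone, and ranged from -0.046 to 0.071. *H2-Eb1* ranged there from -0.29 to 0.81 and *Cd74* from -0.046 to 0.78, both lowest without KO DMXAA replicate 4. The interaction of *H2-DMa* was -0.0062 with DESeq2 and -0.00695 with other size factors, and ranged from -0.022 to 0.092. Between vehicle groups *H2-Aa* was 0.095 with doublets kept and ranged from -0.49 to 0.095, *Cd74* was -0.14 with limma and -0.18 without TMM and ranged from -0.24 to 0.43, and *Lgmn* in microglia was -0.038 without nuclei holding other leukocyte markers.

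Without TMM, genes called higher and lower in microglia were 102 and 82 in WT (main 123 and 62) and 410 and 789 between vehicle groups (main 564 and 577). Over the tissue they were 2082 and 9033 between vehicle groups (main 4421 and 5267). In WT microglia without DMXAA replicate 3 they were 331 and 315, and with the WT groups alone 52 and 5. No paired analysis was possible because replicate numbers do not tie libraries of different groups to 1 animal or litter. Depth limits the members in macrophages, where 1 UMI decides many values.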

Other observations

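The *Cd74* UMIs of fibroblasts lay mostly in 1 of their clusters. Cluster 24, with 786 nuclei, held 53 of the 56 *Cd74* UMIs of fibroblasts and all 5 fibroblast nuclei with 3 or more members, while cluster 13, with 1918 nuclei, held 3 *Cd74* UMIs and no such nucleus. No marker of this division was sought, and the values are given without a test.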
